A study of Homo sapiens with 8 samples.

Results

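The nucleolar ribosome biogenesis genes described here were 38 genes that encode the proteins which transcribe, modify and process ribosomal RNA and assemble it into ribosomal subunits. They were chosen by symbol from the gene column of the count table and make up 38 of its 23562 gene entries. Of these 38, 37 had enough counts to be tested among 13838 tested genes. The remaining member, NOP2, held too few counts. RNA sequencing of polyadenylated RNA was used to compare cells of OCI-AML5, a cell line established from human acute myeloid leukemia, that carried guides against CEBPD with cells of the same line that carried non-specific guides. The product of CEBPD, C/EBP delta, binds DNA and regulates transcription in myeloid cells, and the series title calls the gene a tumor suppressor in this leukemia. All 8 libraries came from cells transduced with lentiCRISPRv2, a lentiviral vector that delivers Cas9 together with a guide RNA, so the controls carried Cas9 as well. The 4 control libraries, sgControl 1 to 4, each held another non-specific guide, and the 4 libraries sgCEBPD 1 to 4 each held another guide against CEBPD, with no further treatment or time named. The labels do not say whether the libraries came from separate cultures, so a p-value here reflects only how these libraries spread, guides included, and that spread may be technical.

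Ribosomes are built in the nucleolus, around the arrays of ribosomal RNA genes that RNA polymerase I transcribes into a long precursor. Small nucleolar ribonucleoproteins (snoRNPs) then modify the precursor: the box C/D class adds methyl groups to ribose and the box H/ACA class turns uridines into pseudouridines. The small subunit processome folds and cuts the part of the precursor that becomes the small subunit, and a separate set of assembly factors builds the large subunit. In many cell types the transcription factor MYC, which binds the E-box CACGTG with its partner MAX, raises expression of these genes.

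Library totals lay between 10217751 and 11521209 counts. Levels are given as CPM, the count of a gene relative to the TMM-scaled library size, unless another scale is named. CEBPD transcript stood at 202 to 216 CPM in the controls and at 107, 209, 195 and 164 CPM in sgCEBPD 1 to 4. A frameshift need not lower the transcript, so this level does not check editing. Many genes of sgCEBPD 3 had values unlike those of the remaining 7 libraries, and each result is therefore given with it and without it. Over all tested genes the lower and upper quartiles of its log2 ratios to the control mean were -0.40 and 0.39, against at most -0.14 and 0.15 in any other library. The myeloid genes SPI1 (297 to 433 CPM), CSF1R (387 to 538 CPM) and CD33 (99.0 to 143 CPM) were present in every library, and the summed erythroid and the summed fibroblast or epithelial markers stayed under 2 CPM in each.

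The members stood close to the control level in sgCEBPD 1, 2 and 4 and well below it in sgCEBPD 3. The median of their log2 ratios to the control mean was 0.06, -0.06 and -0.02 in sgCEBPD 1, 2 and 4. In sgCEBPD 3 it was -0.63, with single members between -1.06 and 0.19, beside a median of -0.01 over all tested genes in that library. A control library, set against the mean of the other 3 controls, gave medians between -0.06 and 0.04. Ratios below 0 were found for 36 of the 37 tested members in sgCEBPD 3. That library held the lowest of the 8 values for 35 of the 37, or 94.6%, whereas it held the lowest value for 34.9% of all tested genes. It lay more than 1.5-fold below the control mean for 22 of the 37, or 59.5%, against 18.4% of all tested genes. At more than 2-fold below that mean, the count was 2 of the 37, against 8.66% of all tested genes. The exceptions to the lowest place were NOP10 and NOB1. These counts come from 1 library with no replicate and carry no test.

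**Figure D1:**
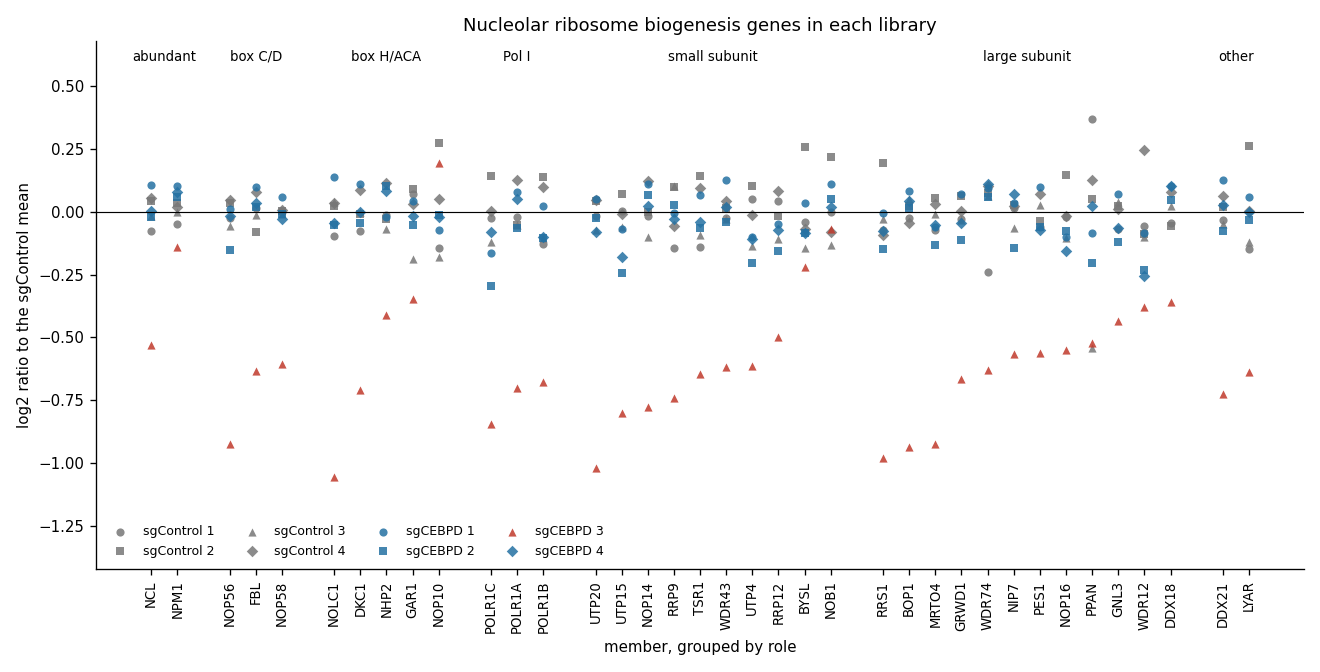
Log2 ratio of each tested member (horizontal axis, grouped by role) to the mean of the control libraries, from log2 CPM (prior count 2); each control is set against the other 3 controls. Gray points are controls, blue points sgCEBPD 1, 2 and 4, and red triangles sgCEBPD 3, which held the lowest CPM for 35 of the 37 members (sgControl 3 plots lower for PPAN because its reference leaves it out).

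The summed level of the members also set sgCEBPD 3 apart. It was 8063 to 8471 CPM in the controls and 8068 to 8727 CPM in sgCEBPD 1, 2 and 4, and it was 5657 CPM in sgCEBPD 3. As a share of all counts that is 0.816% to 0.850% in the controls and 0.537% in sgCEBPD 3. The ranges of the controls and of sgCEBPD 1, 2 and 4 overlapped, and sgCEBPD 3 lay outside both. In bulk RNA, fewer cells that express these genes and less of their RNA per cell cannot be told apart.

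**Figure D2:**
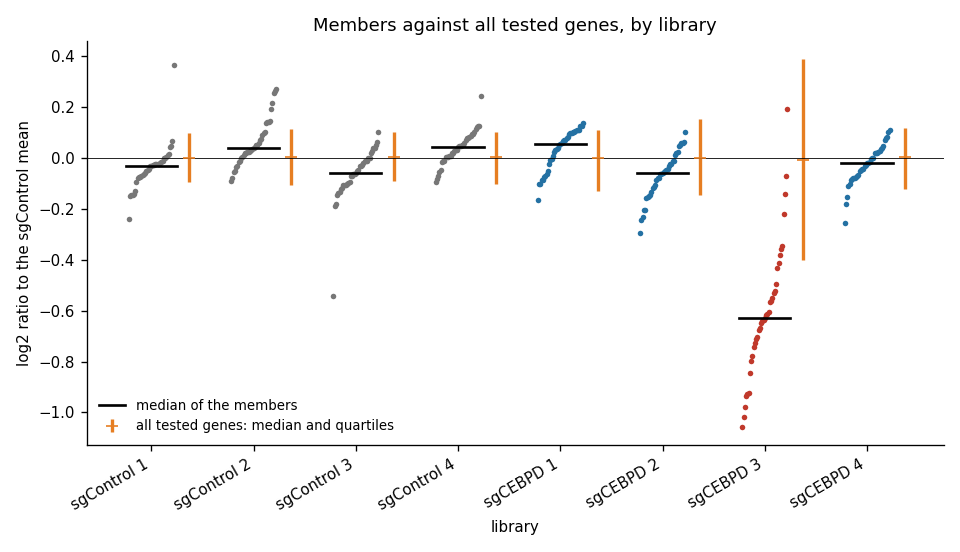
Log2 ratio of the tested members to the control mean in each library (points, in ascending order within a library; black bar, their median) beside the median and quartiles of all tested genes (orange). The member medians lie between -0.06 and 0.06 in 7 libraries and at -0.63 in sgCEBPD 3.

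The promoters of several members hold the E-box, and 4 are shown because they span the members' behaviour in sgCEBPD 3: UTP20 and NOP14 stood far below the controls, FBL near the median of the members, and NOP10 above the control mean. The sequences run 5′ to 3′ on the gene's strand from 180 bases before to 30 bases after the RefSeq gene start on GRCh38.p14, and capitals mark the E-box CACGTG. UTP20 lies at chr12:101279925-101280134 on the plus strand, and NOP14 at chr4:2963377-2963586, FBL at chr19:39846350-39846559 and NOP10 at chr15:34343107-34343316 on the minus strand.
UTP20: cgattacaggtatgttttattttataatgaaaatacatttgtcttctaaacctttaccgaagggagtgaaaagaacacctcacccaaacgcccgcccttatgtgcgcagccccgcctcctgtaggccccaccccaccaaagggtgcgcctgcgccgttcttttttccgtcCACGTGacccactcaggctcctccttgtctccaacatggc
NOP14: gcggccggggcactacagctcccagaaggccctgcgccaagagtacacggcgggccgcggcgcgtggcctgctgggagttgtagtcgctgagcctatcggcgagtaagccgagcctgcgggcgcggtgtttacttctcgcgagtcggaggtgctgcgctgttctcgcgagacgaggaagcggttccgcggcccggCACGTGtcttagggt
FBL: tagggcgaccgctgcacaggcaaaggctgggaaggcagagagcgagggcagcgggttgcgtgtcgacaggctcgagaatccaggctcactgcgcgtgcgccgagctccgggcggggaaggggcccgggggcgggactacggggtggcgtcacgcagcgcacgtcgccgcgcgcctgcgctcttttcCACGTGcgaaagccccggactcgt
NOP10: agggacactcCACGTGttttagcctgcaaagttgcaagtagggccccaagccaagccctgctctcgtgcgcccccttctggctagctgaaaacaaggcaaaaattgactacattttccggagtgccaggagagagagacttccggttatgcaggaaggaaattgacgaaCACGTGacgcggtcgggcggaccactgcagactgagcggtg

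RefSeq promoter windows of 300 bases (250 before and 50 after the start) matched 32 of the 38 members with 40 windows, since some genes have more than 1 start. BOP1, DDX18, NOLC1, NOP58, RRP12 and RRS1 had no entry. CACGTG, which reads the same on both strands, was in 15 of the 40 windows (37.5%). It was in 7.26% of all 35116 windows and in 9.55% of the 14371 windows of tested genes. A C/EBP half-palindrome written TTGCNNAA, searched on both strands, was in 2 of the 40 (5%), those of NCL and GAR1, against 7.56% of the windows of tested genes. The ETS core CCGGAAG, searched on both strands, was in 15 of the 40 (37.5%), against 17.5%. Of the tested members with a window, 14 held CACGTG, with a median log2 ratio of -0.63 in sgCEBPD 3, and 17 did not, also with a median of -0.63. Neither median covers the members without an entry, some of which were among the lowest in sgCEBPD 3. Their log2 ratios there were -1.06 (NOLC1), -0.98 (RRS1), -0.94 (BOP1), -0.60 (NOP58), -0.50 (RRP12) and -0.36 (DDX18). A match describes the letters in the window and is no measure of binding, and the members were picked as a set known for MYC dependence.

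NCL and NPM1 encode nucleolin and nucleophosmin, histone chaperones and assembly factors that are among the most abundant nucleolar proteins. NCL stood at 1597, 1698, 1646 and 1708 CPM in sgControl 1 to 4 and at 1788, 1636, 1151 and 1663 CPM in sgCEBPD 1 to 4. Only its sgCEBPD 3 value lay outside the control range on the low side, and sgCEBPD 1 lay above it. NPM1 stood at 1189, 1242, 1219.7 and 1233 CPM in the controls and at 1309, 1273, 1106 and 1289 CPM in sgCEBPD 1 to 4. For NPM1, sgCEBPD 1, 2 and 4 were each above all 4 controls while sgCEBPD 3 was below them. Its sgCEBPD 3 value was 90.6% of the control mean, among the smallest shortfalls of all members, and NCL was at 69.2%. NPM1 has 45 named pseudogenes, and the counting tool's handling of reads shared with them was not given in the sources used here.

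NOP56, FBL and NOP58 are core proteins of the box C/D snoRNP, in which FBL (fibrillarin) is the methyltransferase. NOP56 stood at 304, 314, 299 and 316 CPM in sgControl 1 to 4 and at 310.4, 278, 162 and 305 CPM in sgCEBPD 1 to 4. The sgCEBPD 3 value was 52.6% of the control mean, sgCEBPD 2 was also under the control range, and the other pair lay inside it. NOP58 stood at 158, 158, 157 and 159 CPM in the controls and at 164, 157, 104 and 155 CPM in sgCEBPD 1 to 4. Its controls spread less than those of any other tested member, with a coefficient of variation of 0.392%. That is the smallest of 37 values from 4 libraries each, so it may understate the true spread. The sgCEBPD 3 value was 65.7% of the control mean. FBL had 179.6 CPM in sgCEBPD 3, where the remaining 7 libraries had 268 to 299 CPM.

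The box H/ACA proteins did not stand at one level in sgCEBPD 3, where NOLC1 was the lowest of the tested members and NOP10 the only tested member above the control mean. NOLC1, also called Nopp140, is a chaperone of these particles, and its gene lies at chr10:102152176-102163871. NOLC1 stood at 333, 355, 357 and 357 CPM in sgControl 1 to 4 and at 385, 338, 168 and 339.5 CPM in sgCEBPD 1 to 4. The sgCEBPD 3 value was 48.0% of the control mean, with an exact Poisson interval at 95% of 45.8% to 50.3% that covers counting error only. The other 3 values were inside the control range or above it. NOP10, a short structural protein of the particle, stood at 57.2, 71.0, 56.1 and 63.3 CPM in the controls and at 58.6, 61.1, 70.5 and 60.8 CPM in sgCEBPD 1 to 4. All 4 sgCEBPD values of NOP10 fell inside the control range, and sgCEBPD 3 was the highest of the 4, at 113.9% of the control mean (106% to 123%). DKC1, the pseudouridine synthase of the particle, was at 61.0% of the control mean in sgCEBPD 3. NHP2 and GAR1, the remaining core proteins, were at 75.04% and 78.4%.

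POLR1A, POLR1B and POLR1C encode subunits of RNA polymerase I. POLR1A and POLR1B form its catalytic core, and POLR1C is shared with RNA polymerase III. POLR1C stood at 35.7, 39.0, 34.0 and 36.3 CPM in sgControl 1 to 4 and at 32.3, 29.4, 20.0 and 34.2 CPM in sgCEBPD 1 to 4. Its sgCEBPD 1, 2 and 3 values were below every control, and sgCEBPD 4 lay just inside the control range. POLR1B stood at 131, 150.2, 132 and 147 CPM in the controls and at 142, 130.0, 87.4 and 130.3 CPM in sgCEBPD 1 to 4. Here sgCEBPD 2 and 4 lay just below the lowest control, by less than the control SD of 9.98 CPM, and sgCEBPD 1 inside the range. POLR1A was at 61.3% of its control mean in sgCEBPD 3, POLR1B at 62.4% and POLR1C at 55.3%.

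The 10 small subunit factors ranged in sgCEBPD 3 from UTP20 at 49.2% of the control mean to NOB1 at 95.1%. UTP20 is a large scaffold protein of the processome, and its gene lies at chr12:101280109-101386616. UTP20 stood at 96.7, 99.8, 94.0 and 99.96 CPM in sgControl 1 to 4 and at 101, 96.0, 48.0 and 92.2 CPM in sgCEBPD 1 to 4. Just above the control range lay sgCEBPD 1, just below it sgCEBPD 4, and far below it sgCEBPD 3. UTP4 and UTP15 belong to the subcomplex that joins the precursor early and is linked to its transcription. UTP4 stood at 95.9, 98.6, 87.0 and 92.9 CPM in the controls and at 87.1, 81.1, 61.1 and 86.7 CPM in sgCEBPD 1 to 4. The UTP4 groups overlapped only through sgCEBPD 1, which lay just above the lowest control, and sgCEBPD 4 lay just below it. UTP15 stood at 39.9, 41.3, 38.5 and 39.6 CPM in the controls and at 37.9, 33.6, 22.8 and 35.1 CPM in sgCEBPD 1 to 4. All 4 sgCEBPD values of UTP15 were below all 4 controls.

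RRP12, an export and maturation factor of the subunit precursors, stood at 160.3, 155, 148 and 164 CPM in sgControl 1 to 4 and at 152, 141, 111 and 149 CPM in sgCEBPD 1 to 4. The groups overlapped, with sgCEBPD 1 and 4 above the lowest control. NOB1 is the endonuclease that makes the last cut in the small subunit RNA, in the cytoplasm. NOB1 stood at 67.6, 75.7, 63.1 and 64.8 CPM in the controls and at 73.1, 70.0, 64.5 and 68.5 CPM in sgCEBPD 1 to 4. All 4 sgCEBPD values of NOB1 were inside the control range, and the Poisson interval of sgCEBPD 3 ran from 87.9% to 103% of the control mean. BYSL, a late factor of the same subunit, was at 85.4% in sgCEBPD 3. The other 5 small subunit members, NOP14, RRP9, TSR1, WDR43 and UTP4, were at 58.2%, 59.6%, 63.7%, 65.1% and 65.3% in sgCEBPD 3. NOP14, WDR43 and UTP4 are processome proteins, RRP9 binds the U3 snoRNA, and TSR1 is a late factor that resembles a GTPase.

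Among the 13 large subunit assembly factors, 12 were tested and all 12 were lowest in sgCEBPD 3, as were 34.9% of all tested genes. PES1, BOP1 and WDR12 form the PeBoW complex, which is needed to process the large subunit RNAs. WDR12 stood at 124, 122, 122 and 146 CPM in sgControl 1 to 4 and at 121, 109, 98.4 and 107 CPM in sgCEBPD 1 to 4. All 4 sgCEBPD values of WDR12 were below all 4 controls, though sgCEBPD 1 missed the lowest of them by far less than the control SD of 11.5 CPM. Within the complex, BOP1 was at 52.3% of its control mean in sgCEBPD 3, PES1 at 67.7% and WDR12 at 76.6%. In sgCEBPD 3 BOP1 had 168 CPM, and in the remaining libraries 313 to 339 CPM.

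RRS1 recruits the 5S ribonucleoprotein to the large subunit precursor. RRS1 stood at 107, 123, 109 and 106 CPM in sgControl 1 to 4 and at 110.4, 100.1, 56.2 and 105 CPM in sgCEBPD 1 to 4. The sgCEBPD 3 value was 50.6% of the control mean, and sgCEBPD 2 and 4 were under the lowest control. MRTO4, a relative of the stalk protein P0 that holds its place in the precursor, stood at 139.6, 149, 144 and 147 CPM in the controls and at 139, 132, 76.2 and 139.8 CPM in sgCEBPD 1 to 4. Only sgCEBPD 4 reached into the control range of MRTO4. NOP16, an early factor, stood at 55.5, 60.6, 53.1 and 55.7 CPM in the controls and at 52.3, 53.3, 38.3 and 50.4 CPM in sgCEBPD 1 to 4. Its groups overlapped through sgCEBPD 2, which lay just above the lowest control. DDX18, an RNA helicase, stood at 199, 198, 206 and 212 CPM in the controls and at 219, 210.1, 159 and 219 CPM in sgCEBPD 1 to 4. For DDX18, sgCEBPD 1 and 4 were above every control, and sgCEBPD 3 was below every control at 78.0% of their mean.

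Of the remaining large subunit factors, GRWD1 stood at 63.0% of the control mean in sgCEBPD 3, WDR74 at 64.3%, NIP7 at 67.4%, PPAN at 68.4% and GNL3 at 74.0%. GRWD1 is a histone and ribosomal protein chaperone, GNL3 is the GTPase nucleostemin, and NIP7, PPAN and WDR74 act in processing of the large subunit precursor. PPAN was the most variable tested member among the controls, at 14.3 to 23.0 CPM, and the control range nearly reached its value in sgCEBPD 3, 13.2 CPM. In the annotation, 59.8% of the PPAN exon bases are shared on the same strand with the PPAN-P2RY11 readthrough or with P2RY11, so its counts may not be its own. For RRS1 the same-strand share is 11.4%. Exon bases shared with a gene on the opposite strand are 27.4% in NHP2, 20.8% in TSR1 and 20.2% in NOB1 and NIP7. They are 20% in NOP16, 18.2% in POLR1C and 17.1% in NOP14. The strand setting is not given, and the effect of these overlaps on the counts was not tested. NOP2, an RNA methyltransferase, had 0.259 to 0.962 CPM per library, and 54.4% of its exon bases are shared with another annotated gene on the same strand, so its level was not read.

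DDX21 and LYAR are the remaining nucleolar members. DDX21, an RNA helicase that links RNA polymerase I transcription to processing, stood at 646, 664, 641 and 678 CPM in sgControl 1 to 4 and at 717, 622, 397 and 669.6 CPM in sgCEBPD 1 to 4. The sgCEBPD 3 value was 60.4% of the control mean, and sgCEBPD 1 and 2 lay on opposite sides of the control range. LYAR, a zinc finger protein that also takes part in precursor processing, stood at 67.9, 84.1, 68.9 and 73.5 CPM in the controls and at 76.4, 71.7, 47.1 and 73.3 CPM in sgCEBPD 1 to 4. All LYAR values but that of sgCEBPD 3 were inside the control range.

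**Figure D3:**
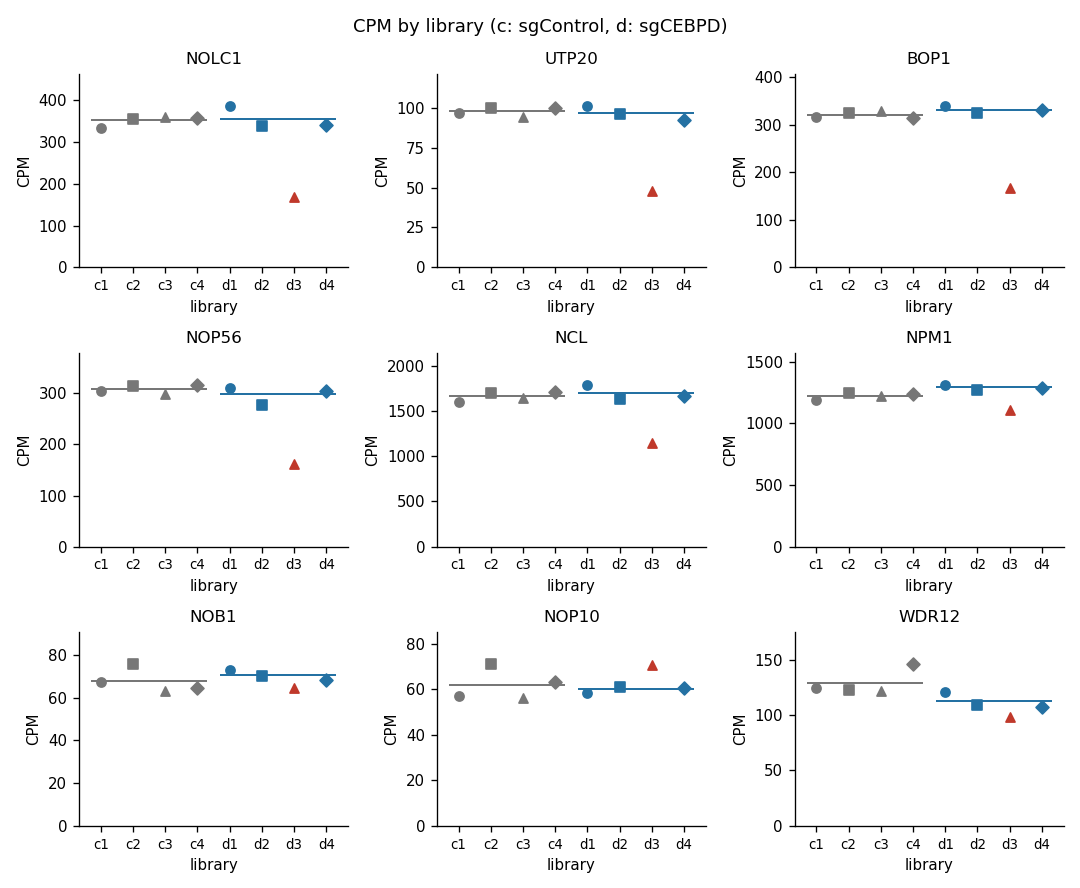
CPM of 9 members in each library (vertical axis from 0; c1 to c4, sgControl 1 to 4; d1 to d4, sgCEBPD 1 to 4, with sgCEBPD 3 as a red triangle). Gray and blue lines are the means of the controls and of sgCEBPD 1, 2 and 4; NOLC1, UTP20, BOP1 and NOP56 in sgCEBPD 3 are at 48.0% to 52.6% of the control mean, and NOB1 and NOP10 are within the control range.

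Levels were compared between members per kilobase of exon in GENCODE 29. In the controls NPM1 (319 CPM per kb), NCL (239.9), DDX21 (131), FBL (129) and NOP10 (112) were the highest, and POLR1C (6.53) and UTP15 (6.30) the lowest of those tested. The ratio in sgCEBPD 3 had a Spearman correlation of -0.214 with exon length and of -0.186 with control CPM across the 37 tested members, which share the same 8 libraries. Across the 12373 tested genes with a length the values were 0.0542 and -0.0616. The members are spread over 17 chromosomes with at most 7 on any of them. Their controls had a median coefficient of variation of 4.18%, against 5.45% for the 8242 genes at or above the level of the lowest tested member. That set is bounded only from below and is not matched to the members in level.

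No member passed the threshold between the groups, an adjusted p under 0.05 in edgeR's quasi-likelihood test over all genes. In the comparison of 4 against 4 libraries 0 of 37 members were called, while 0.0723% of all tested genes were called lower and 0.00723% higher in sgCEBPD. Without sgCEBPD 3 again 0 of 37 were called, while 1.31% of all tested genes were called lower and 0.705% higher. DESeq2 and limma-voom also called 0 members in both comparisons. At an unadjusted p under 0.05, edgeR had 1 of 37 members (2.7%, against 11.4% of all genes) with all libraries, and 5 (13.5%, against 15.5%) without sgCEBPD 3. The 1 member was WDR12, and the 5 were WDR12, UTP4, UTP15 and POLR1C on the lower side and NPM1 on the higher side.

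With all 8 libraries the log2 fold changes of the members leaned to the lower side, and without sgCEBPD 3 they were centred near 0. The median over members was -0.13 with 8 libraries, from -0.32 (POLR1C) to 0.03 (NPM1), and 34 of 37 were negative (91.9%, against 50% of all genes). Over all tested genes the median was 0.00. Without sgCEBPD 3 the median over members was -0.01, from -0.19 (WDR12) to 0.09 (WDR74), and 21 of 37 were negative (56.8%, against 49.7%). The standard error (SE) of a log2 fold change was derived as its absolute value over the square root of the test's F statistic. The median SE of a member was 0.14 with 8 libraries and 0.05 without sgCEBPD 3. Adjusted p-values ran from 0.393 to 0.958 with 8 libraries and from 0.231 to 0.986 without sgCEBPD 3, all in edgeR's test.

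**Figure D4:**
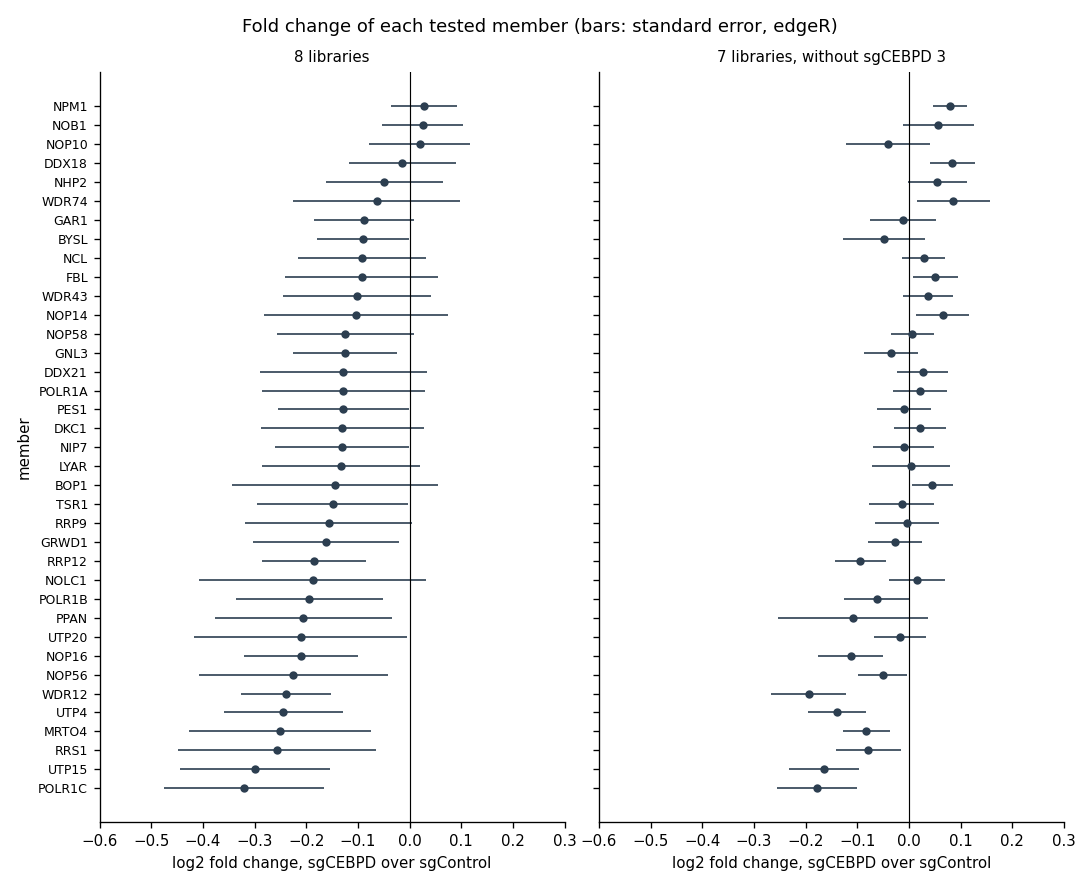
Log2 fold change (horizontal axis) of sgCEBPD over sgControl for each tested member, from edgeR. The left panel has 8 libraries and the right panel leaves out sgCEBPD 3, both in the order of the left panel. Bars are standard errors derived from edgeR's fold change and F statistic. The median lies at -0.13 on the left and at -0.01 on the right, and no member passed the adjusted threshold in either panel.

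The 8 members with the lowest p came from several roles. WDR12 had a log2 fold change of -0.24 (SE 0.09, edgeR adjusted p = 0.393) with 8 libraries and of -0.19 (SE 0.07, adjusted p = 0.231) without sgCEBPD 3. UTP15 had -0.30 (SE 0.14) and -0.16 (SE 0.07), and POLR1C had -0.32 (SE 0.16) and -0.18 (SE 0.08). UTP4 had -0.24 (SE 0.12) and -0.14 (SE 0.06) on the same scale. These 4 members kept a negative sign without sgCEBPD 3 but lay nearer to 0. For NOP16 the values were -0.21 (SE 0.11) and -0.11 (SE 0.06), and for RRP12 -0.18 (SE 0.10) and -0.09 (SE 0.05). For MRTO4 they were -0.25 (SE 0.18) and -0.08 (SE 0.05), and for POLR1B -0.19 (SE 0.14) and -0.06 (SE 0.06). On the higher side without sgCEBPD 3, NPM1 had 0.08 (SE 0.03, edgeR adjusted p = 0.280) and DDX18 0.08 (SE 0.04, adjusted p = 0.395).

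Few members had groups that did not overlap. With 8 libraries UTP15 and WDR12, or 5.41% of the tested members, had all sgCEBPD values below all controls, against 4.62% of all tested genes. None had all values above the controls, where 4.96% of all genes did. Without sgCEBPD 3 the same pair, UTP15 and WDR12, lay below all controls, against 7.49% of all genes. NPM1 alone, 2.7% of the members, lay above all controls, against 6.92%. These shares were near or under those of all genes.

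The other genes of ribosome biogenesis were taken as 5 lists, and no gene of any list was called in either comparison. RNA polymerase I machinery holds the remaining polymerase subunits, their initiation factors, and TTF1 and TCOF1. This list had a median log2 fold change of -0.07 with 8 libraries (14 of 18 negative, against 50% of all genes) and of 0.01 without sgCEBPD 3. The other small subunit factors had -0.10 (41 of 47 negative) and 0.00, and the other large subunit factors had -0.07 (34 of 48 negative) and 0.02. The RNA exosome, which trims the precursor, had -0.04 and -0.01, and the snoRNP assembly factors had -0.05 and -0.01. In sgCEBPD 3 the medians of the log2 ratio were -0.24 for the polymerase machinery, -0.43 and -0.46 for the small and large subunit lists, -0.17 for the exosome and -0.29 for snoRNP assembly. The library was lowest of the 8 for 12 of 18, 41 of 47, 36 of 48, 9 of 14 and 10 of 13 genes of these lists in the same order. Over all tested genes it was lowest for 34.9%.

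In each of these lists the gene with the lowest p missed the threshold. They were TAF1C, a subunit of the polymerase I selectivity factor, at -0.12 (edgeR adjusted p = 0.580 with 8 libraries), and the processome protein DCAF13 at -0.17 (adjusted p = 0.455). REXO4, a nuclease homolog among the large subunit factors, had -0.26 (edgeR adjusted p = 0.438), and RUVBL2, an ATPase in snoRNP assembly, had -0.12 (adjusted p = 0.535). EXOSC4, an exosome ring subunit, stood higher at 0.26 (edgeR adjusted p = 0.432). At the ends of the large subunit list in sgCEBPD 3, and named after their values were seen, NOC2L had 73.9 CPM against 198 to 229 CPM in the other libraries, and ZNF622 had 105 CPM against 47.2 to 58.3 CPM.

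**Figure D5:**
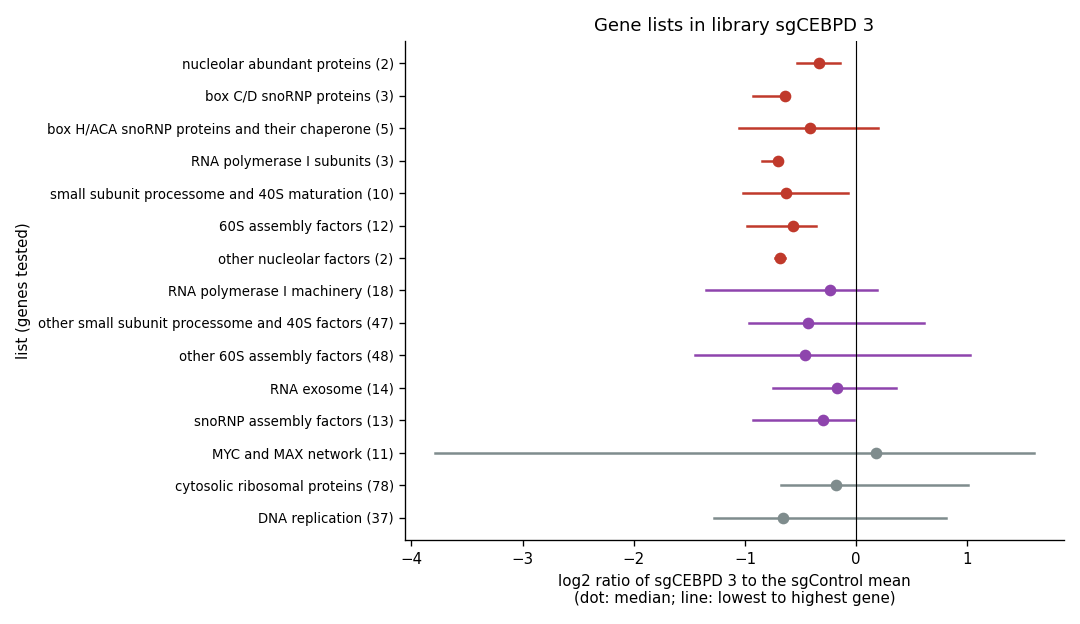
Log2 ratio of sgCEBPD 3 to the control mean (horizontal axis; dot, median; line, lowest to highest gene) for the members by role (red), other ribosome biogenesis lists (purple) and neighbouring lists (gray), with the number of tested genes in parentheses. The member groups have medians from -0.70 to -0.34, the other biogenesis lists from -0.46 to -0.17, and DNA replication -0.66.

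Several other genes and lists also stood apart in sgCEBPD 3. MYC stood at 880.5, 964, 839.6 and 849 CPM in sgControl 1 to 4 and at 891, 774, 471 and 824 CPM in sgCEBPD 1 to 4. Its sgCEBPD 3 value was far below the other 7, which lay between 774 and 964 CPM, and its log2 ratio there was -0.90. MYC had a log2 fold change of -0.26 (edgeR adjusted p = 0.578) with 8 libraries and of -0.09 (adjusted p = 0.533) without sgCEBPD 3. MXD1 and MXI1, which compete with MYC for MAX, stood at 74.1 and 139 CPM in sgCEBPD 3, against 22.4 to 29.6 and 40.1 to 57.2 CPM in the other 7. The related MXD3, MNT and MXD4 had log2 ratios of 0.33, 0.26 and -0.05 there. Over the MYC and MAX network the median ratio was 0.18, with 5 of 11 tested genes below 0. MYCL had the lowest ratio of them, -3.79, at 0.491 CPM against 5.96 to 10.8 CPM in the other libraries. DNA replication genes had a median log2 ratio of -0.66 in sgCEBPD 3, with 32 of 37 lowest there. Cytosolic ribosomal proteins, the structural parts of the ribosome, had -0.18, with 57 of 78 lowest there. Of all tested genes, 34.9% were lowest in sgCEBPD 3.

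The 17 monocyte and macrophage markers, of which 15 are in the table, summed to 569 to 631 CPM in the controls, 563 to 742 CPM in sgCEBPD 1, 2 and 4, and 1289.7 CPM in sgCEBPD 3. ITGAM stood at 210 CPM in sgCEBPD 3 against 4.00 to 21.3 CPM elsewhere, and CD14 at 41.0 CPM. Not every marker of the list was higher there: LYZ had 80.9 CPM in sgCEBPD 3 and 74.9 to 169.7 CPM in the controls. Of the 7 tested markers, 1 had a log2 ratio below 0 in that library, and the median ratio was 2.81. FCGR3A, C1QA and C1QC were at 0 in every control. The summed progenitor markers were 1175 to 1317 CPM in the controls, 1096 to 1197 in sgCEBPD 1, 2 and 4, and 1155 in sgCEBPD 3. Of these 7 markers, 6 had a log2 ratio below 0 in sgCEBPD 3, and 3 were lowest there, as were 34.9% of all tested genes. KIT had 2.46 CPM in sgCEBPD 3 against 18.1 to 51.9 CPM elsewhere. SPI1 went the other way, at 433 CPM against 297 to 329 CPM. Lymphoid markers summed to 68.1 CPM in sgCEBPD 3, of which CD3D gave 52.7, against 5.53 to 10.5 CPM elsewhere. Neutrophil markers summed to 503 CPM there, against 232 to 391 CPM, and CSF3R alone gave 418 of the 503 CPM. The median log2 ratio of the 5 tested neutrophil markers was 0.03, with 2 of the 5 below 0. MPO was lowest in sgCEBPD 3 at 11.8 CPM, close to sgCEBPD 2 at 12.4 CPM. PRTN3 had 0.393 CPM in sgCEBPD 3 but 0.0908 CPM in sgControl 3, and ELANE was at 0 in sgCEBPD 1, 2 and 3. AZU1 was higher in sgCEBPD 3, at 18.9 CPM against 1.99 to 6.33 CPM in the other libraries. The part of these measures in the member values of sgCEBPD 3 was not tested.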

How the data were processed

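RNA sequencing of OCI-AML5 cells gave 8 libraries, for which the authors deposited a table of raw counts for each gene. The submitters' processing notes list FastQC, HISAT2, DESeq2 and build hg38 and give them no role or version. Which tool, annotation and strand setting produced the counts is not given in the sources used here. Counts were tested with edgeR 4.0.16 in R 4.3.3 (filterByExpr, TMM scaling, robust quasi-likelihood test, Benjamini-Hochberg adjustment over all genes tested, threshold 0.05), with 8 libraries (13838 genes) and without sgCEBPD 3 (14047 genes). Log2 ratios used log2 CPM with a prior count of 2. Alternatives were DESeq2 1.42.0, limma-voom 3.58.1, RLE size factors, library totals, a mean of at least 5 CPM, no filter, the guide number as a block, an adjusted p under 0.01 and each library left out. The functions were tested on simulated counts.

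The members and lists were chosen with earlier results of these data known. Values per library are given for the 8 members with the lowest p and, in each role, the members with the lowest and highest ratio in sgCEBPD 3. In each further list the gene with the lowest p is named. Positions come from GENCODE 29 on GRCh38 by symbol, and promoters from RefSeq on GRCh38.p14. No 2 libraries were identical.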

Additional observations from a re-analysis of the deposited data

Results flagged for a closer look

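In each group of 4 libraries, a member's highest or lowest CPM was marked where its gap to the nearest value took up more of the group's range than Dixon's 95% limit allows. Chance marks about 1 in 20 such groups, and 15 of 76 were marked. In 10 of them the value was that of sgCEBPD 3, the lowest of its group. These were UTP20 at 48.0 CPM (the nearest sgCEBPD library had 92.2), BOP1 at 168 CPM (323), MRTO4 at 76.2 CPM (132), NOP14 at 68.1 CPM (119), RRP9 at 38.9 CPM (63.9), WDR74 at 36.1 CPM (58.3), FBL at 179.6 CPM (283), LYAR at 47.1 CPM (71.7), NOP58 at 104 CPM (155) and DDX18 at 159 CPM (210.1). The members are not independent of each other, since all are read from the same library. The share of all tested genes marked in this way was not computed, and many genes of sgCEBPD 3 were unlike the other libraries. The count of marks is therefore no result about the members.

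In the other 5 the value was a control's. NOLC1 was lowest in sgControl 1 at 333 CPM (the nearest control had 355), WDR74 was lowest in sgControl 1 at 49.3 CPM (57.8), and NIP7 was lowest in sgControl 3 at 86.4 CPM (89.98). WDR12 was highest in sgControl 4 at 146 CPM (124), and POLR1A was highest in sgControl 4 at 241 CPM (223).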

How the results depend on the processing

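The count of members past the threshold was 0 in both comparisons under every alternative run. Over all genes DESeq2 called 292 with 8 libraries and 596 without sgCEBPD 3, against 11 and 283 by edgeR. The median log2 ratio in sgCEBPD 3 was -0.71 with library totals, which also put the median of all genes at -0.09 and made 36 members lowest there; under the other settings it lay between -0.66 and -0.61, and leaving out each control gave -0.65 to -0.61. Leaving out each library moved the median fold change from -0.21 to -0.01 with 8 libraries, the latter without sgCEBPD 3, and from -0.04 to 0.02 in the comparison without that library. Guide numbers did not pair the libraries: correlations of same-numbered deviations were -0.08 to 0.06, and for 1 of 4 numbers the best match was its own. Adding the guide number as a replicate block gave medians of -0.16 and -0.03, with 0 members called.

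Some signs turned, none with a member past the threshold, and the cause was not tested. The full set of refits covers the members with values in every library. Of the other members, which were refitted only without sgCEBPD 3, BOP1, POLR1A, DKC1, FBL, NOP14, WDR43, NHP2 and WDR74 turned from negative (-0.14 to -0.05) to positive (0.02 to 0.09). With library totals NOP10 had -0.010 and NOB1 -0.0015 with 8 libraries, and NOP58 had -0.0049 and LYAR -0.0062 without sgCEBPD 3. With the replicate block LYAR had -0.021. Leaving out each library with 8 libraries gave -0.041 to 0.092 for NOP10, -0.0091 to 0.083 for NOB1, -0.057 to 0.084 for DDX18, -0.161 to 0.029 for NCL, -0.187 to 0.0061 for NOP58, -0.310 to 0.016 for NOLC1, -0.220 to 0.027 for DDX21 and -0.197 to 0.0047 for LYAR. Without sgCEBPD 3 it gave -0.046 to 0.051 for NOLC1, -0.033 to 0.074 for LYAR, -0.085 to 0.031 for NOP10, -0.0084 to 0.057 for NCL, -0.017 to 0.023 for NOP58, -0.022 to 0.080 for DDX21, -0.079 to 0.00013 for NOP56 and -0.050 to 0.013 for UTP20. NOP2 held 3 to 11 counts per library, too few to test. Why it held so few was not tested.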
